A study of Mus musculus with 6 samples.

Results

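The 10 genes described here encode chaperones of the heat shock response and their partners in the cytosol and the mitochondrion, namely Hspa1a, Hspa1b, Hspa8, Hsph1, Dnajb1, Bag3, Hsp90aa1, Hspb1, Hspe1 and Hspd1. They were picked by name: a gene entered when the name of its row in the deposited expression table equalled one of these symbols. Each symbol matched 1 row, so that the set held 10 of the 23473 RefSeq rows, and all 10 were among the 12320 rows with a mean of at least 1 RPKM (reads scaled to the length of the gene and the size of the library) that were tested.

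Chaperones bind unfolded stretches of other proteins and keep them from clumping. HSP70 proteins do so in a cycle driven by ATP, in which J-domain proteins such as Dnajb1 deliver the client and start hydrolysis, while nucleotide exchange factors such as Bag3 and the HSP110 protein Hsph1 reset the cycle. HSP90 receives clients from HSP70 at a later step, small heat shock proteins hold unfolded proteins without ATP, and Hspd1 with its lid Hspe1 forms the folding cage of the mitochondrial matrix. After heat or other protein-damaging stress the transcription factor Hsf1 forms trimers and binds heat shock elements, which are repeats of the unit GAA in alternating orientation. In vessels, chaperones of these families are known to take part in the response of endothelial cells to flow, hypoxia and inflammation, and Hsp90 is a partner of the endothelial nitric oxide synthase.

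The libraries were bulk RNA-seq of tumor endothelial cells (TECs) from Lewis lung carcinoma (LLC), a transplanted mouse lung cancer line, in 3 Ctrl and 3 NICeCA mice. All were C57BL/6, with an age of 8 weeks in the labels, and male according to the methods. NICeCA mice carried the Cdh5 cre ERT2 transgene, a tamoxifen-dependent recombinase driven by the promoter of an endothelial cadherin, and a Rosa26 flox-stop-flox Notch1 ICD allele, so that recombination puts the active intracellular part of Notch1 into Cdh5-expressing cells. Ctrl mice are given as wild type. The methods place tumor inoculation after the last tamoxifen injection without saying which genotypes were injected, and do not give whether Ctrl mice carried the recombinase. The cells of both groups were freed from the tumor by collagenase digestion with warming and caught on CD31 beads, and since CD31 is also found on leukocytes, such a catch can hold other cells. The question of this comparison was how transcript levels in TECs differ when endothelial Notch signaling is switched on.

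Libraries held 29818454 to 30769916 reads on RefSeq rows in Ctrl and 27793301 to 29194187 in NICeCA, and ribosomal Rn45s took 0.825% to 6.40% of them. Notch1, whose intracellular part the transgene encodes, measured 14.3, 8.19 and 13.8 RPKM in Ctrl and 12.3, 13.6 and 12.6 RPKM in NICeCA, with a log2 fold change of 0.11 (SE 0.20, limma, adjusted p = 0.713). The row does not separate the transgene from the endogenous gene. Summed RPKM of 12 endothelial markers was 208 to 512 in Ctrl and 436 to 559 in NICeCA, while the macrophage markers summed to 6512 to 9425 RPKM in Ctrl and 4461 to 8272 RPKM in NICeCA. Of the endothelial markers 2 of 12 rose, with log2 fold changes above 0 in all 12. Of the macrophage markers 3 of 10 rose, but log2 fold changes were above 0 in only 4 of the 10. No marker of either list fell, and of all tested rows 5.88% rose and 7.68% fell. Neutrophil markers summed to 197 to 355 RPKM in Ctrl and to 822 to 1953 RPKM in NICeCA, without overlap, and 9 of the 10 tested markers rose. Among markers of fibroblasts and mural cells, 3 of 9 fell and 1 rose. Their part in the results on chaperones was not tested, and in bulk samples fewer cells of a type and less RNA per cell cannot be told apart.

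The sequences around the starts of the chaperone genes were searched for the letters of heat shock elements. The RefSeq promoter table of GRCm38.p6 held windows from 250 bases before to 50 bases after the start for 8 of the 10 genes, without Hspa8 and Hsp90aa1. Each window was searched for an inverted pair of units, GAANNTTC or TTCNNGAA, which read the same on both strands. In GAANNTTC the units point towards each other and in TTCNNGAA they point apart, and neighbouring pairs can share a unit. At least 1 pair was present in 7 of the 8 genes (87.5%), against 17.0% of the 27025 genes in the table. A run of 3 alternating units was present in Hsph1, Hspe1 and Hspd1, which is 3 of 8 (37.5%) against 0.662% of all genes. GAANNTTC alone was found in 7.86% and TTCNNGAA in 8.52% of the 32851 windows. The genes are not separate counts, since Hspe1 and Hspd1 share the same array and the stretches of Hspa1a and Hspa1b are 98.8% identical. The set was picked as heat shock genes, so that a higher share than over all genes could be foreseen. A match is a stretch of letters and not a measured binding site.

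The 4 stretches printed here end at the base before the start of the deposited gene row and run 5′ to 3′, with the units in capitals. Those of Hspb1 and of Hspe1 with Hspd1 were selected from the genes with the most matches. Hsph1, with more matches than Hspb1, was not printed. The stretches of Hspa1a and Hspa1b were added after the values had been seen, because both genes rose. The positions are chr17:34972157-34972406 for Hspa1a and chr17:34959239-34959488 for Hspa1b, both on the minus strand, chr5:135887669-135887918 on the plus strand for Hspb1, and chr1:55087933-55088147 on the plus strand for the whole gap between Hspd1 and Hspe1, which are transcribed away from each other.
Hspa1a: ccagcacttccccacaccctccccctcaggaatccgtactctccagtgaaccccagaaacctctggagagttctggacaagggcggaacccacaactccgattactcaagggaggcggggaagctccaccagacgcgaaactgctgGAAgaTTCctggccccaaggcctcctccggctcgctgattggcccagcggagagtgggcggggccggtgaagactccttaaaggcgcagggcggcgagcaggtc
Hspa1b: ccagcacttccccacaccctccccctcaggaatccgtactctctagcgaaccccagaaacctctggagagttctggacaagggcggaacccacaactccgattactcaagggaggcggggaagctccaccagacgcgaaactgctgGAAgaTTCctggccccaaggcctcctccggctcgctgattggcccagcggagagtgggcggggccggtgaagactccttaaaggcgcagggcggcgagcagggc
Hspb1: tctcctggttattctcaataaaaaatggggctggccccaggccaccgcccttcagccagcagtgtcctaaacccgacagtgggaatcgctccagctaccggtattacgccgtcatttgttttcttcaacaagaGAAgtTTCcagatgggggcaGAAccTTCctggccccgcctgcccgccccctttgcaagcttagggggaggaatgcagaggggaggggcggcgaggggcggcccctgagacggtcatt
Hspd1 and Hspe1, shared gap: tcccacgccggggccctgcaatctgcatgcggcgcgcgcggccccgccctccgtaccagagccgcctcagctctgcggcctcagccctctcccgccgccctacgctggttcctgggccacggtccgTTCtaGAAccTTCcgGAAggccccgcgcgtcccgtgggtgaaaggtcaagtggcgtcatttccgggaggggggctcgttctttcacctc

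In Hspa1a and Hspa1b the single pair started at position -104 from the start of the row, and their 250 bases differed at 3 positions (98.8% identical). Hspb1 held a pair at -117 and another at -97. In the gap of Hspd1 and Hspe1, whose starts lie 216 bases apart, 1 unbroken array of units lay upstream of both genes. Its pairs lay at -89, -84 and -79 seen from Hspe1 and at -144, -139 and -134 seen from Hspd1. Hsph1, which had 3 matches against 2 in Hspb1, is given here by position only. It had a pair at -54 and a chain beyond the start at 15 and 20. Bag3 had a single pair at 42, and Dnajb1 had no match in either of its windows.

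**Figure D1:**
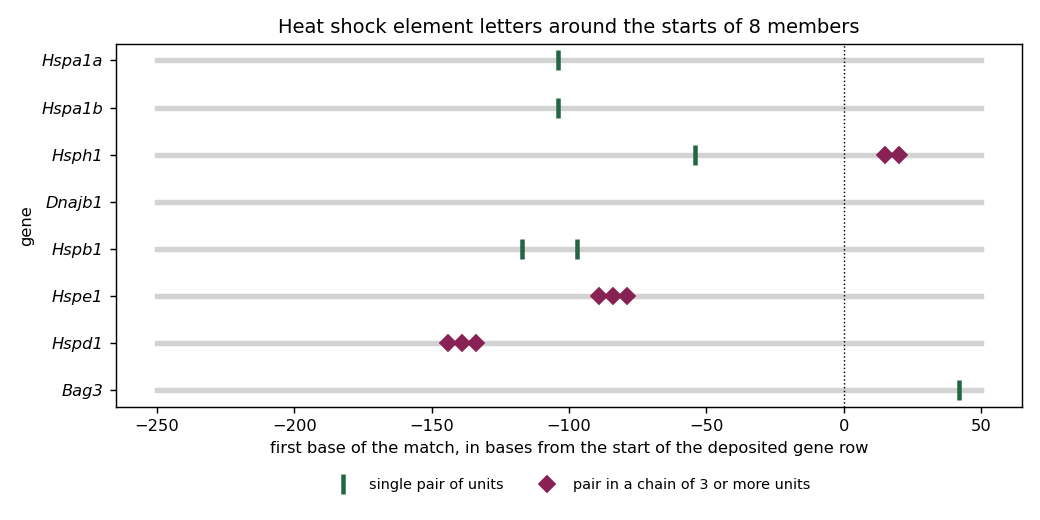
Position of paired heat shock element units around the start of 8 chaperone genes. The x axis gives the first base of a match in bases from the start of the deposited row, the y axis the gene, grey bars the window, green lines single pairs and purple diamonds pairs in a chain of 3 or more units. Matches of Hspa1a and Hspa1b sit at the same place, -104, and the chains belong to Hsph1, Hspe1 and Hspd1.

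Of the 10 chaperone genes, 3 rose in the CD31 bead catch from NICeCA tumors, in which macrophage and neutrophil markers were also measured. The 3 genes were the HSP70 genes Hspa1a, 2.26-fold, and Hspa1b, 1.80-fold, and the HSP90 gene Hsp90aa1, 1.71-fold, as ratios of mean RPKM. None of the 10 fell. Hspa1a and Hspa1b are near-identical copies and not separate counts. Of all tested rows, 5.88% rose and 7.68% fell. The 4 genes with an unadjusted limma p under 0.05, these 3 and Dnajb1, were all higher. Of all tested rows 35.5% lay under that limit in either direction, so that the count of 4 is near the share over the table. Hspa8, Dnajb1 and Hspe1 lay higher in every NICeCA library than in any Ctrl library by smaller margins that did not pass the test. Bag3 lay lower in every NICeCA library, and the values of Hsph1, Hspb1 and Hspd1 overlapped between the groups. Over all tested rows, 16.5% lay higher and 24.4% lower in every NICeCA library.

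**Figure D2:**
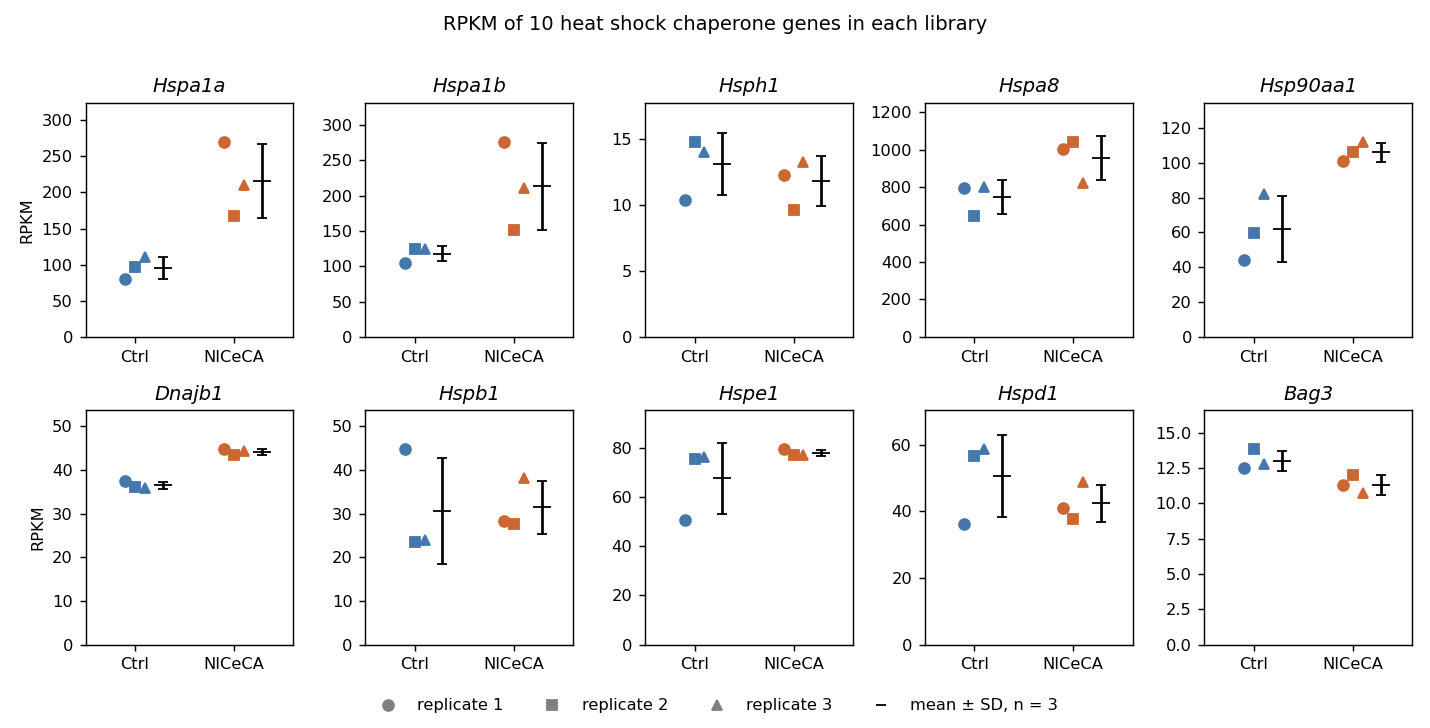
RPKM (y axes, each from 0) of the 10 chaperone genes in the Ctrl (blue) and NICeCA (orange) libraries. Each symbol is 1 mouse, by replicate number, and black bars give the mean ± SD, n = 3. For Hspa1a the Ctrl values lie at 80.2 to 110 and the NICeCA values at 167 to 270, while for Hspb1 and Hspd1 the groups overlap.

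By level per length, Hspa8 stood far above the others with a mean of 850 RPKM over the 6 libraries, rank 64 among all RefSeq rows. Hspa1b followed with 166, Hspa1a with 156, Hsp90aa1 with 84.0, Hspe1 with 72.7, Hspd1 with 46.5, Dnajb1 with 40.3, Hspb1 with 31.0, Hsph1 with 12.4 and Bag3 with 12.2 RPKM. Along this order only Hspa8 and Hspa1b, and Hspb1 and Hsph1, had ranges that did not touch, and all other neighbours overlapped. Hspa1a exceeded Hsp90aa1, and Hspe1 exceeded Hspd1, within each of the 6 libraries.

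Hspa1a and Hspa1b are neighbouring copies that encode nearly the same inducible HSP70, the classic marker of the heat shock response. Hspa1a (chr17:34969359-34972156, minus strand) measured 80.2, 96.2 and 110 RPKM in Ctrl and 270, 167 and 210 RPKM in NICeCA. All NICeCA values lay above all Ctrl values, and NICeCA replicate 1 was the highest. The means were 95.4 ± 14.8 and 216 ± 51.5 RPKM (SD, n = 3), and Hspa1a rose by a log2 fold change of 1.15 (SE 0.20, limma with Benjamini-Hochberg adjustment, adjusted p = 0.0213) on the log2(RPKM + 1) scale that holds for every fold change below. Without NICeCA replicate 1 the log2 fold change was 0.98 (limma, adjusted p = 0.0829), and without NICeCA replicate 2 it was 1.32 (limma, adjusted p = 0.0554).

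Hspa1b (chr17:34956429-34959238, minus strand) showed the same order of libraries, with 105, 124 and 125 RPKM in Ctrl and 276, 152 and 211 RPKM in NICeCA. Here too the groups did not overlap, with NICeCA replicate 1 at the top and NICeCA replicate 2 nearest to Ctrl. The mean was 118 ± 11.2 RPKM in Ctrl and 213 ± 61.8 RPKM in NICeCA (SD, n = 3), a log2 fold change of 0.81 (SE 0.22, limma, adjusted p = 0.0469). This call was lost when any of the 6 libraries was left out, with log2 fold changes of 0.60 without NICeCA replicate 1 to 1.03 without NICeCA replicate 2 (limma, adjusted p = 0.142 and 0.0757). After quantile normalization it was 0.45 (limma, adjusted p = 0.155).

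Reads of these copies cannot always be told apart: of the 150-base windows of the GENCODE transcripts, 39.7% in Hspa1a and 40.5% in Hspa1b also occur in a transcript of another gene, namely of each other or of Hspa1l. Hspa1a is also overlapped on the opposite strand by Gm20481, and the sources used here do not say whether reads were counted by strand. The summed RPKM of Hspa1a and Hspa1b was therefore tested as 1 row. It was 186, 220 and 235 in Ctrl and 546, 320 and 422 in NICeCA, without overlap, and rose 2.01-fold with a log2 fold change of 0.98 (SE 0.21, limma, adjusted p = 0.0328). The call held without Ctrl replicate 3 or NICeCA replicate 3 and was lost without Ctrl replicate 1, Ctrl replicate 2, NICeCA replicate 1 or NICeCA replicate 2 (limma, adjusted p = 0.0572, 0.0693, 0.112 and 0.0642), and quantile normalization lowered the log2 fold change to 0.56 (limma, adjusted p = 0.109). The ratio of Hspa1a to Hspa1b, which had not been planned, was 0.762, 0.775 and 0.876 in Ctrl and 0.978, 1.10 and 0.994 in NICeCA. The groups did not overlap, with an exact two-sided permutation p of 0.1, the smallest that the 20 assignments of 6 libraries allow.

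Hspa8, the constitutive HSP70 that folds new proteins and uncoats clathrin vesicles, lies at chr9:40801273-40805199 on the plus strand. It measured 797, 643 and 798 RPKM in Ctrl and 1002, 1041 and 821 RPKM in NICeCA. The groups did not overlap, although NICeCA replicate 3 came within a small margin of Ctrl replicates 1 and 3. The means were 746 ± 89.1 and 955 ± 117 RPKM (SD, n = 3), and the log2 fold change of 0.35 (SE 0.16) did not pass the test (limma, adjusted p = 0.157). Of the 150-base windows of Hspa8, 55.4% also occur in transcripts of 4 other genes. The small RNA genes Snord14c, Snord14d and Snord14e overlap Hspa8 on the same strand. Set against Hspa8, also unplanned, the inducible pair gave a ratio of 0.233, 0.343 and 0.295 in Ctrl and 0.545, 0.307 and 0.514 in NICeCA. Here NICeCA replicate 2 fell among the Ctrl values (exact two-sided permutation p = 0.2).

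None of the 3 partners of HSP70 passed the test, and Dnajb1 alone of them had an unadjusted limma p under 0.05. Dnajb1 (chr8:83608175-83611903, plus strand), the J-domain protein that works with inducible HSP70 in the cytosol, measured 37.4, 36.2 and 35.8 RPKM in Ctrl and 44.7, 43.4 and 44.4 RPKM in NICeCA. The groups were apart and each was tight: only 0.0974% of the tested rows had a smaller spread within groups than the SD of 0.03 (log2) of Dnajb1. The means of 36.5 ± 0.818 and 44.2 ± 0.687 RPKM (SD, n = 3) gave a log2 fold change of 0.27 (SE 0.11), which did not pass the test (limma, adjusted p = 0.117). Limma's standard error for a gene borrows from the spread of all rows.

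Bag3 (chr7:128523583-128546979, plus strand), which links HSP70 to selective autophagy, measured 12.5, 13.8 and 12.8 RPKM in Ctrl and 11.3, 12.0 and 10.7 RPKM in NICeCA. Its NICeCA values all lay below the Ctrl values, with a log2 fold change of -0.19 (SE 0.11, limma, adjusted p = 0.263). Hsph1 (chr5:149616845-149636315, minus strand), the HSP110 protein that recharges HSP70 and helps it to dissolve aggregates, measured 10.4, 14.8 and 14.0 RPKM in Ctrl and 12.3, 9.63 and 13.3 RPKM in NICeCA. Both its highest and its second lowest value were in Ctrl, and the log2 fold change was -0.14 (SE 0.17, limma, adjusted p = 0.593). Neither transcript shares a 150-base window with another gene, but an exon of 2610306O10Rik overlaps Bag3 on the same strand.

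Hsp90aa1 encodes the stress-inducible cytosolic HSP90 and lies at chr12:110691036-110696395 on the minus strand. It measured 44.4, 59.7 and 82.1 RPKM in Ctrl and 101, 106 and 112 RPKM in NICeCA. The groups did not overlap, and the spread was wider among the Ctrl libraries (62.0 ± 19.0 RPKM) than among the NICeCA libraries (106 ± 5.55 RPKM, SD, n = 3). Hsp90aa1 rose by a log2 fold change of 0.81 (SE 0.21, limma, adjusted p = 0.0454). The call held without Ctrl replicate 3 and was lost without any other library, with adjusted p-values up to 0.161 in limma. Quantile normalization lowered the log2 fold change to 0.49 (limma, adjusted p = 0.146).

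Its constitutive counterpart Hsp90ab1, which is not among the 10 genes, measured 291, 435 and 421 RPKM in Ctrl and 288, 270 and 347 RPKM in NICeCA, with overlapping groups and a log2 fold change of -0.32 (SE 0.19, limma, adjusted p = 0.258). The ratio of Hsp90aa1 to Hsp90ab1, which was chosen after the values had been seen, was 0.152, 0.137 and 0.195 in Ctrl and 0.349, 0.393 and 0.322 in NICeCA. The groups were apart, at 0.162 ± 0.0300 against 0.354 ± 0.0358 (SD, n = 3; exact two-sided permutation p = 0.1, the smallest possible). Of the 150-base windows of Hsp90aa1, 36.2% also occur in transcripts of 3 other genes.

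Hspb1 (chr5:135887919-135889563, plus strand) encodes the small heat shock protein that is called HSP25 in the mouse and also acts on actin filaments. It measured 44.7, 23.4 and 23.9 RPKM in Ctrl and 28.2, 27.7 and 38.2 RPKM in NICeCA. Ctrl replicate 1 was the highest of the 6 libraries and the other 2 Ctrl libraries were the lowest, so that the groups overlapped. The log2 fold change of 0.08 (SE 0.26, limma, adjusted p = 0.845) was below 0 after quantile normalization, at -0.05, and without Ctrl replicate 2, Ctrl replicate 3 or NICeCA replicate 3, at -0.07 to -0.06. Its spread within groups was wide, and 90.3% of the tested rows had a smaller one. Of its 150-base windows, 36.6% also occur in Hsp25-ps1.

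The mitochondrial folding cage is encoded by a pair of neighbouring genes. Hspe1 (chr1:55088148-55091317, plus strand), the lid of the cage, measured 50.8, 75.3 and 76.3 RPKM in Ctrl and 79.3, 77.0 and 77.2 RPKM in NICeCA, while Hspd1 (chr1:55077834-55087932, minus strand), its barrel, measured 36.3, 56.6 and 58.6 RPKM in Ctrl and 40.9, 37.8 and 48.7 RPKM in NICeCA. Hspe1 was higher in every NICeCA library, by less than 1 RPKM at the nearest pair, and Hspd1 overlapped. In both genes Ctrl replicate 1 was the lowest library. The log2 fold changes were 0.23 for Hspe1 (SE 0.17, limma, adjusted p = 0.375), which turned to -0.09 after quantile normalization, and -0.22 for Hspd1 (SE 0.20, limma, adjusted p = 0.460).

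The level of Hspd1 relative to Hspe1 was lower in every NICeCA library. The ratio, chosen after the values had been seen, was 0.715, 0.752 and 0.768 in Ctrl and 0.515, 0.490 and 0.631 in NICeCA. The means were 0.545 ± 0.0751 against 0.745 ± 0.0271 (SD, n = 3; exact two-sided permutation p = 0.1, the smallest possible). An exon of Hspd1 in the annotation overlaps the Hspe1 gene on the opposite strand, and 14.1% of the 150-base windows of Hspe1 and 18.6% of those of Hspd1 also occur in another gene. Hspa9, the HSP70 of the mitochondrial matrix, measured 37.2, 47.2 and 49.0 RPKM in Ctrl and 49.4, 45.0 and 52.0 RPKM in NICeCA (log2 fold change 0.14, SE 0.14, limma, adjusted p = 0.518).

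**Figure D3:**
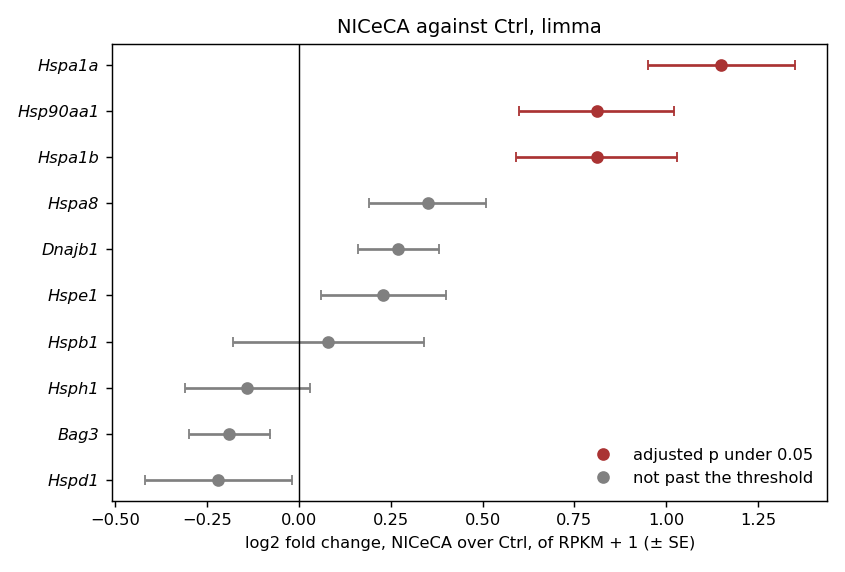
Log2 fold change of RPKM + 1, NICeCA over Ctrl (x axis), of the 10 chaperone genes (y axis), with bars of 1 standard error from limma. Red points passed an adjusted p under 0.05: Hspa1a at 1.15 and Hsp90aa1 and Hspa1b at 0.81. The grey points run from Hspa8 at 0.35 to Hspd1 at -0.22.

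Across the table, 5.88% of the 12320 tested rows rose and 7.68% fell, against 3 and 0 of the 10 chaperone genes. Groups that did not overlap, with NICeCA higher, were seen in 6 of the 10 and in 16.5% of all tested rows, and with NICeCA lower in 1 of the 10 and in 24.4% of all. Hspa1a and Hspa1b, near-identical copies, are among the 3 and among the 6 and are not separate counts. Of the log2 fold changes of the 10 genes, 7 were above 0, with a median of 0.25, while over all tested rows 5509 were above and 6811 below 0, with a median of -0.05. Quantile normalization left 5 of the 10 above 0. The direction of calls over the whole table depended on the scaling: 43.4% of the 1671 calls were higher in NICeCA with the deposited values, 58.5% after scaling by a trimmed mean, 57.8% after quantile normalization and 33.8% with voom on recovered reads.

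The count of 3 rested on all 6 libraries. With Hspa1a and Hspa1b summed as 1 row it was 2. As separate rows, the count was 2 without Ctrl replicate 3, beside 1655 rows over the whole table. It was 1 without Ctrl replicate 1, Ctrl replicate 2 or NICeCA replicate 3, beside 1035, 379 and 1337 rows. Without NICeCA replicate 1, and likewise without NICeCA replicate 2, limma called 0 of the 10 genes, with 3 of them at an unadjusted p under 0.05, beside 24.4% and 22.2% of all rows, and over the whole table it then called 104 and 18 rows. With all libraries limma called 1, Hspa1a, after quantile normalization, beside 771 rows over the whole table. It called 0 without the filter on low values, beside 51 rows. Voom on recovered reads called 3 with all libraries, beside 16.4% of all tested rows.

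The 10 genes together took 0.346%, 0.326% and 0.381% of the RefSeq reads in Ctrl and 0.541%, 0.473% and 0.460% in NICeCA. All NICeCA libraries lay above all Ctrl libraries, and the difference of the means was 0.14 percentage points. Without Rn45s and mitochondrial rows in the total the shares were 0.360%, 0.349% and 0.389% against 0.545%, 0.478% and 0.469%. Hspa8 alone supplied 53.7% to 63.5% of these reads in Ctrl and 47.8% to 58.8% in NICeCA. The pair Hspa1a and Hspa1b took 0.0682%, 0.0800% and 0.0852% of RefSeq reads in Ctrl and 0.193%, 0.114% and 0.151% in NICeCA.

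Library by library, the mean deviation of the 10 genes from their own averages was -0.28, -0.14 and -0.05 (log2) in Ctrl and 0.23, 0.04 and 0.20 in NICeCA. NICeCA replicate 2 was the NICeCA library nearest to Ctrl. The deviations of single genes within a library differed widely, and in Ctrl replicate 1 they ran from -0.83 for Hsp90aa1 to 0.55 for Hspb1.

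**Figure D4:**
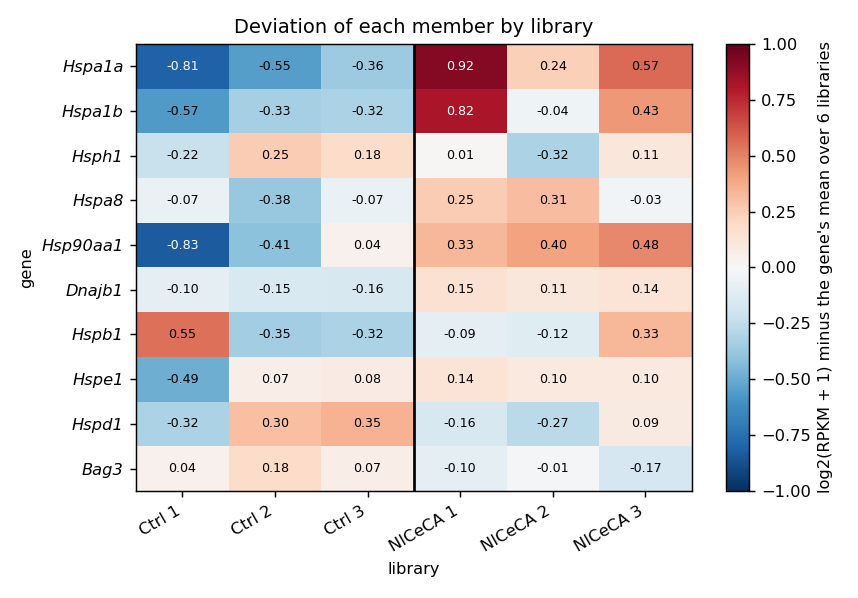
Deviation of log2(RPKM + 1) from the mean of each gene over the 6 libraries, as colour and number. Columns are the libraries, with a black line between Ctrl and NICeCA, and rows the 10 chaperone genes. Hspa1a runs from -0.81 in Ctrl replicate 1 to 0.92 in NICeCA replicate 1, and Dnajb1 stays between -0.16 and 0.15.

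The 5 other tested genes whose centred profile over the 6 libraries was nearest to this mean were Wwp2, a ubiquitin ligase, Thoc6, of the mRNA export complex, Tgds, Afg3l2, a mitochondrial protease, and Cers2, a ceramide synthase. Their root mean square differences from it were 0.032, 0.041, 0.042, 0.044 and 0.047 (log2), against 0.181 for a flat profile. Their log2 fold changes were 0.30 to 0.32 and did not pass the test (limma, adjusted p = 0.0981 to 0.123).

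Hsf1, the factor that drives the heat shock genes, measured 12.9, 18.6 and 16.5 RPKM in Ctrl and 9.64, 9.22 and 11.6 RPKM in NICeCA. All NICeCA values lay below all Ctrl values, and Hsf1 fell with a log2 fold change of -0.60 (SE 0.16, limma, adjusted p = 0.0478). In 10 of 16 alternatives Hsf1 lost its call, among them leaving out any library but Ctrl replicate 1, with log2 fold changes of -0.74 to -0.49 over all of them. Hsf2, its relative, did not separate, at 3.77, 3.24 and 4.48 RPKM in Ctrl and 4.04, 3.69 and 3.84 RPKM in NICeCA (log2 fold change 0.02, limma, adjusted p = 0.941). Transcript levels do not show the activity of Hsf1, which is set on the protein. Of 4 tested heat shock factors and regulators, 1 fell and none rose.

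Other chaperones and cofactors were counted in lists of genes by role. Of the 94 tested genes in 9 lists, 9 rose and 1, Hsf1, fell, with a median log2 fold change of 0.06, beside 5.88% of all tested rows that rose and 7.68% that fell. Against that background the counts of 1 or 2 genes in a list given here are no result about the list. None of the 7 other HSP70 and HSP110 genes passed the test (median -0.03), nor did any of the 9 other HSP70 cofactors (-0.10), the 5 other small heat shock proteins (-0.03) or the 11 other mitochondrial chaperones and proteases (0.01). At an unadjusted p under 0.05 limma counted 29 of the 94, and 35.5% of all tested rows lay under that limit. Voom on recovered reads called 11, against 16.4% of all rows.

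Among 16 genes of the other HSP90 machinery 1 rose, the co-chaperone Sugt1, with 13.1, 11.4 and 13.4 RPKM in Ctrl and 19.7, 19.9 and 16.3 RPKM in NICeCA (log2 fold change 0.52, limma, adjusted p = 0.0418), while the median of the list was -0.23. Of 15 other cytosolic J-domain genes 2 rose, Dnajb4 with a log2 fold change of 0.50 (limma, adjusted p = 0.0395) and Dnajc8, which belongs to splicing complexes, with 0.41 (limma, adjusted p = 0.0472). In the cytosolic chaperonin and prefoldin, which fold actin and tubulin, all 13 tested genes had log2 fold changes above 0 with a median of 0.11, and 1 passed the test, the prefoldin subunit Vbp1 (log2 fold change 0.57, limma, adjusted p = 0.0446).

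The chaperones of the endoplasmic reticulum, many of which answer to the unfolded protein response, had 5 of 14 genes that rose, none that fell and a median of 0.38. Hspa5, the HSP70 of this compartment, measured 175, 186 and 233 RPKM in Ctrl and 368, 361 and 341 RPKM in NICeCA, without overlap (log2 fold change 0.85, SE 0.15, limma, adjusted p = 0.0209). Dnajb9, a J-domain partner of Hspa5, measured 7.72, 5.76 and 8.51 RPKM in Ctrl and 16.5, 19.9 and 13.7 RPKM in NICeCA (log2 fold change 1.09, limma, adjusted p = 0.0201). Pdia4, a protein disulfide isomerase, measured 40.0, 44.6 and 55.5 RPKM in Ctrl and 102, 76.4 and 80.7 RPKM in NICeCA (log2 fold change 0.88, limma, adjusted p = 0.0266). In all 3 genes every NICeCA library lay above every Ctrl library.

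**Figure D5:**
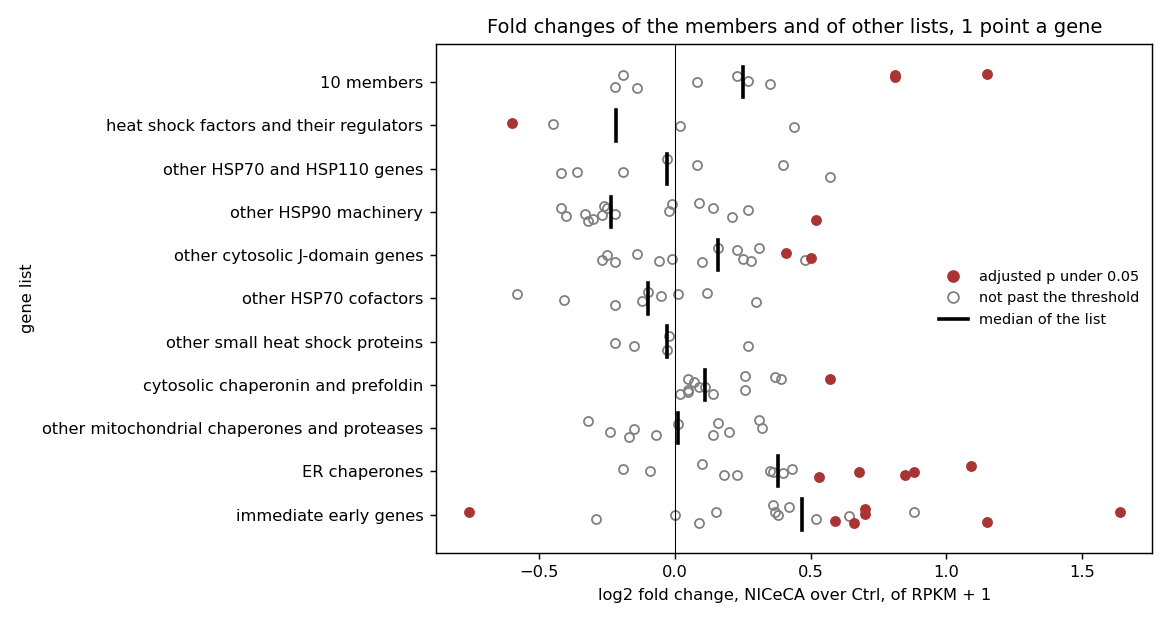
Log2 fold change of RPKM + 1, NICeCA over Ctrl (x axis), of the 10 chaperone genes and of the tested genes of 10 other lists (y axis). Each circle is a gene, filled red where the adjusted p was under 0.05, and the black bar is the median of a list. The median is 0.25 for the 10 genes, -0.23 for other HSP90 machinery, 0.38 for ER chaperones and 0.47 for immediate early genes.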

How the data were processed

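TECs from 6 tumors, 1 mouse per library according to the methods, were sequenced after removal of ribosomal RNA. The authors deposited RPKM values per gene, from reads aligned with TopHat2 according to the submitters' processing notes. The sources used here name no counting tool. These notes name mm9, but the rows of all 10 genes overlap the gene of that name on the same strand of GRCm38 (GENCODE M21). Groups came from the sample titles and the library names in the column headers. The table has 56826 rows, and its 33353 FANTOM3 rows were left out. Of these, 1 overlaps Bag3 and 0 overlap another of the 10 genes on the same strand. A spreadsheet had turned the names of 27 rows into dates, and they were kept.

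From the deposited RPKM, log2(RPKM + 1) was compared by limma 3.58.1 under R 4.3.3 (eBayes on lmFit, mean-variance trend, two-sided, Benjamini-Hochberg over rows with a mean of at least 1 RPKM, adjusted p under 0.05). P-values measure the spread between these mice. The methods name the OmicShare tools, which were not run. Whole read numbers could be recovered from 100% of the RPKM values under 1000 reads, within 0.05 reads, and served for depth and for voom. Shares of reads and ratios were computed in Python 3.11.15, and exact permutation tests with scipy 1.17.1. The code was tested on simulated data. Alternatives were a block for the replicate number, quantile normalization, trimmed mean scaling, each library left out, no filter, a filter at 5 RPKM, no trend, voom, a pseudocount of 0.1, an adjusted p under 0.1 and the summed Hspa1a and Hspa1b row.

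The 10 genes and all lists, written from general knowledge, were chosen with earlier results of these data known. The text names the 10 genes, up to 3 called genes with the largest absolute log2 fold change in each list, Hsf1, Hsf2, Hsp90ab1, Hspa9, Hspa5 and Notch1, and the 5 nearest profiles. Promoters are from RefSeq (GRCm38.p6). Other experiments of the study were not used here.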

Additional observations from a re-analysis of the deposited data

How the results depend on the processing

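Of the results on the 10 genes, the direction of Hspa1a, Hspa1b and Hsp90aa1 was kept under every alternative run, while their calls were not: Hspa1a lost its call in 3 of 15 alternatives, Hspa1b in 9 of 15 and Hsp90aa1 in 8 of 16. The number of the 10 genes called, 3, became 1 with the replicate block, 1 after quantile normalization, 0 without a filter (5 at an unadjusted p under 0.05 in limma, beside 24.2% of all rows) and 0 to 2 when libraries were left out. It was 2 with Hspa1a and Hspa1b summed as 1 row. Over all RefSeq rows the count of 1671 became 536 with the replicate block, 771 after quantile normalization, 51 without a filter, 3338 at an adjusted p under 0.1 and 18 to 1655 when libraries were left out. The 10 calls in the other chaperone lists became 1 with the replicate block and 3 after quantile normalization. They became 0 to 10 when libraries were left out. At an adjusted p under 0.1 they became 20, beside 3338 of all rows. Without a filter they became 0, with 36 of 103 genes at an unadjusted limma p under 0.05, beside 24.2% of all rows. Hspa1a and Hspa1b summed, at 0.98, gave 0.98 with the replicate block (limma, adjusted p = 0.0619), 0.56 after quantile normalization (adjusted p = 0.109), 0.98 without a filter (adjusted p = 0.102) and 0.78 to 1.17 when libraries were left out, with the call lost in 4 of 6. Log2 fold changes turned for Hspb1, to -0.05 after quantile normalization and within -0.07 to 0.38 when libraries were left out, and for Hspe1, to -0.09 after quantile normalization. Promoters with a match dropped from 7 to 3 when 3 units were asked for. The filter-free count rests on 23473 tests, and leaving out a library on fewer samples. The cause of the other changes was not tested. The methods speak of pairs of NICeCA and control mice, but neither they nor the labels say which libraries form a pair. A paired analysis by the true pairs could therefore not be made. Deviations of same-numbered libraries correlated at 0.122, -0.343 and -0.178, and the highest correlation, 0.438, was between Ctrl replicate 2 and NICeCA replicate 3. Deviations from the mean of only 3 libraries per group constrain each other, so that these correlations cannot tell which libraries form a pair. The replicate block ended the calls of Hspa1b (limma, adjusted p = 0.0860) and Hsp90aa1 (limma, adjusted p = 0.0616). Reads of near-identical copies limit Hspa1a, Hspa1b, Hspa8, Hsp90aa1 and Hspb1, and to a lesser share Hspd1 and Hspe1.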

Other observations

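Immediate early genes, which are transcribed within minutes of a stimulus, were listed beside the chaperones. Of 18 tested genes 6 rose and 1 fell in NICeCA, against 5.88% and 7.68% of all tested rows. The median log2 fold change was 0.47, against -0.05 over all tested rows. Ier3, a regulator of survival and inflammation, measured 238, 195 and 284 RPKM in Ctrl and 769, 757 and 692 RPKM in NICeCA and rose by a log2 fold change of 1.64 (limma, adjusted p = 0.00882). Egr2, a zinc finger factor, measured 9.05, 6.21 and 15.1 RPKM in Ctrl and 24.1, 24.3 and 18.9 RPKM in NICeCA (1.15, limma, adjusted p = 0.0381). Egr3, of the same family, went the other way, from 1.41, 2.25 and 2.05 RPKM in Ctrl to 0.484, 0.800 and 0.834 RPKM in NICeCA (-0.76, limma, adjusted p = 0.0354). In these 3 genes no NICeCA value lay among the Ctrl values.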
